A study of Mus musculus with 6 samples.

Results

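T cells and natural killer (NK) cells were followed in mouse pancreas through 9 genes that mark them: Cd3d, Cd3g, Cd2, Lck, Zap70, Tcf7, Lef1, Nkg7 and Gzma. The members were the probe sets whose annotation gave exactly 1 symbol and that symbol was one of the 9. They came to 10 probe sets of 45037 on the array and to 7 genes of 18193; the expression of Lck and Tcf7 was not analysed here. The samples were whole pancreas of Prox1-OE mice (genotype Jojo-Prox1,Ngn3-cre; 3 arrays), set against control mice (Ngn3-cre; 3 arrays). All 6 samples were untreated, of NMRI background and taken at postnatal day 15, and the controls carried the same Cre. Ngn3-cre acts in the progenitors of endocrine cells, and whole pancreas averages all cell types of the organ. Whether each array stands for its own animal is not given, and p-values then cover the spread among these arrays, which may be technical.

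T cells recognise antigen through a receptor of 2 variable chains held together with the CD3 subunits, whose tails carry the signal into the cell. The kinase Lck phosphorylates those tails, and the kinase Zap70 docks on them and passes the signal on. NK cells lack this receptor and share the killing machinery of cytotoxic T cells, granules loaded with granzymes. The healthy pancreas holds few lymphocytes, while the lymph nodes beside it are full of them.

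Values are the log2 probe set summaries that the authors deposited, 1 per probe set and array. No detection calls were used, so background was measured on the arrays with 86 probe sets of olfactory, vomeronasal and taste receptor genes. These were taken as mostly silent in pancreas, which was not tested. Their 95th percentile, called background below, ran over 4.33 to 4.42 in Prox1-OE and 4.42 to 4.50 in control, close to the median of all probe sets (4.37 to 4.42). Of the 10 member probe sets, 3 read above it on 3 or more arrays and 7 did not. The tissue was checked with acinar Cpa1 (14.57 to 14.64 in Prox1-OE and 14.64 to 14.69 in control), Ins2 of beta cells (12.72 to 13.04 in Prox1-OE and 12.62 to 13.44 in control) and Krt19 of ducts (7.53 to 8.12 in Prox1-OE and 7.48 to 8.14 in control), all far above background, while Cftr of ducts was under it. Prox1 itself had 3 probe sets, whose groups overlapped and differed by 0.02 ± 0.09, 0.06 ± 0.19 and -0.03 ± 0.18 (SE, limma adjusted p = 0.987, 0.974 and 0.990 over all probe sets). Whether these probe sets lie within the transgene was not tested, so they do not check the genotype labels, and Prox1-OE below means the arrays labelled so. Prox1-OE replicate 1 stood apart from the rest: its score on the main principal component was -28.7, against -4.37 to 16.7 on the other 5 arrays, and 120 genes there lay at least 1 above the highest control, against 9 and 17 on Prox1-OE replicates 2 and 3. The differences of the members are therefore also given without that array. The 3' to 5' difference of the Gapdh and beta-actin control probe sets, a measure of RNA quality, overlapped between Prox1-OE (0.922 to 0.945) and control (0.913 to 0.986).

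Prox1-OE and control pancreas did not differ past the threshold for any of the 7 genes. In limma's fit over all 18193 genes, 0 of 7 had an adjusted p under 0.05, where 0.0275% of all genes did (0.022% higher and 0.0055% lower). At an unadjusted p under 0.05, 1 gene was higher (Nkg7) and 0 were lower, where 6.65% of all genes passed in either direction. Over probe sets, 0 of 10 passed at the adjusted threshold (0.0111% of all probe sets), and 2 of 10, both higher, had an unadjusted p under 0.05 (6.15% of all probe sets, 2.65% higher). Of the 7 genes, 6 had a positive difference and Zap70 a negative one. The median of the 7 was 0.19 on the log2 scale, against -0.01 over all genes, and it was 0.08 without Prox1-OE replicate 1. The groups did not overlap for 1 of the 7, again Nkg7, beside 12.1% of all genes (7.02% lower in Prox1-OE). In bulk tissue, fewer cells of a type and less RNA per cell cannot be told apart.

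**Figure D1:**
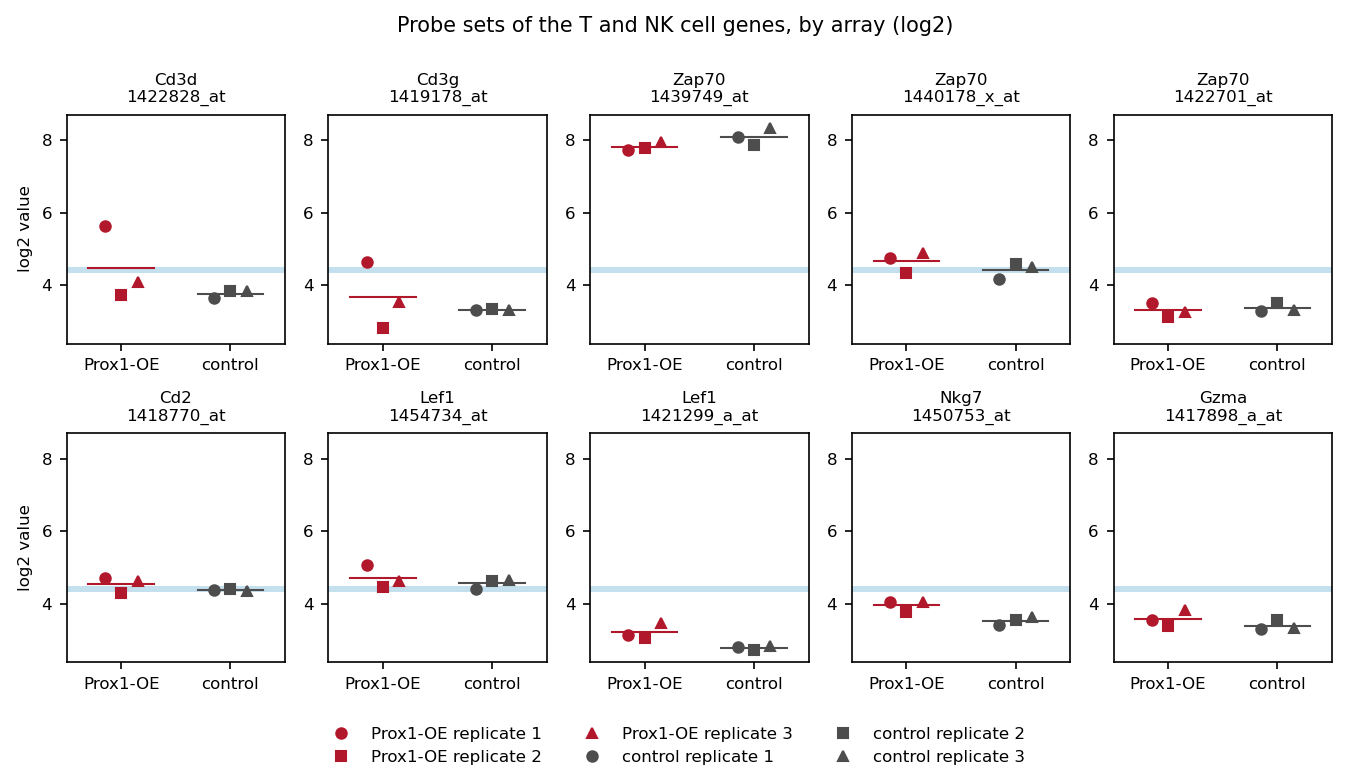
Log2 values of the 10 member probe sets on each array, with Prox1-OE on the left (red) and control on the right (grey); marker shapes are replicates, short lines are group means and the blue band is the range of the background over the 6 arrays. Cd3d and Cd3g stand out on Prox1-OE replicate 1 alone, the Nkg7 groups do not overlap but lie under the band, and the 3 probe sets of Zap70 sit at different heights.

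Cd3d and Cd3g encode the delta and gamma subunits of CD3, part of the T cell receptor complex. Cd3d read 5.62, 3.74 and 4.10 in Prox1-OE, against 3.64, 3.84 and 3.85 in control. Only Prox1-OE replicate 1 was above background, and it exceeded the highest control by 1.77, or 3.4-fold; Prox1-OE replicate 2 lay among the controls. The difference between the groups was 0.71 ± 0.41 (SE; 95% interval -0.24 to 1.66, limma adjusted p = 0.781), smaller than the SD of 0.999 among the Prox1-OE arrays. Cd3g read 4.65, 2.84 and 3.54 in Prox1-OE, against 3.33, 3.35 and 3.32 in control. Prox1-OE replicate 1 was again the highest array, 2.46-fold over the highest control and the only one above background, while Prox1-OE replicate 2 was the lowest of the 6. The group difference was 0.35 ± 0.38 (95% interval -0.52 to 1.21, limma adjusted p = 0.882). Without Prox1-OE replicate 1 the difference was 0.14 for Cd3d and -0.14 for Cd3g, so that the sign of Cd3g turned. Without Prox1-OE replicate 2 it was 1.08 for Cd3d and 0.76 for Cd3g (limma adjusted p = 0.630 for each). On Prox1-OE replicate 1, 2 of the 7 genes, Cd3d and Cd3g, lay at least 1 above the highest control, beside 0.66% of all genes.

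In RefSeq (GRCm38.p6), Cd3d and Cd3g are neighbours on chromosome 9 that are transcribed away from each other, with 0 genes between them. Their promoters are shown because their probe sets were high on the same array, together with that of Nkg7, the gene whose groups did not overlap. Each is the 250 bases before a transcript start, 5′ to 3′ on the gene's strand. The Cd3d window ends at base 44981785, while the gene begins at 44981769 in RefSeq, so the window was placed by a later start. Capitals mark matches on either strand to the core letters CTTTGA bound by TCF and LEF factors, TGTGGT bound by RUNX factors, or GGAAG bound by ETS factors.
Cd3d, chr9:44981536-44981785, + strand: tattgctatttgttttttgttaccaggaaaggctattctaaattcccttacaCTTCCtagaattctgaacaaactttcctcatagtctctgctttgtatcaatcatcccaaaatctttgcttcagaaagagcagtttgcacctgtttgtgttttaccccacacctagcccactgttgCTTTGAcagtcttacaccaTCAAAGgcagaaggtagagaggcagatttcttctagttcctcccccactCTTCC
Cd3g, chr9:44980432-44980681, - strand: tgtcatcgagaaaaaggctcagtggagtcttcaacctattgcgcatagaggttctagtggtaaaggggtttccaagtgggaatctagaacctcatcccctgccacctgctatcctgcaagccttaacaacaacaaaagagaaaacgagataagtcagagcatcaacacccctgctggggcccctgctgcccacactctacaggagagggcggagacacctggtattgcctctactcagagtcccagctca
Nkg7, chr7:43436888-43437137, + strand: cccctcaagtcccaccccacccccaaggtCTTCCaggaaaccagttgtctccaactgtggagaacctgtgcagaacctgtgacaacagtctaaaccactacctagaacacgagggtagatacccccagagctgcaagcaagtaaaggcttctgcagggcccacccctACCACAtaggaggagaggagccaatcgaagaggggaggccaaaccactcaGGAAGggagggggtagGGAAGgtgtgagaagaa

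The Cd3d window held 2 matches to CTTTGA, on opposite strands, and 2 to GGAAG. Counted from the start used for the window, those to CTTTGA began 73 and 54 bases before it. Those to GGAAG began 198 and 5 bases before it, the latter inside the gene as RefSeq bounds it. The Cd3g window held none of the 3 motifs. In the Nkg7 window there were 3 matches to GGAAG and 1 to TGTGGT, and none to CTTTGA. No match overlapped another in these windows. Of the 9 genes, 8 had at least 1 window in the RefSeq table, and of these 3 (Cd3d, Zap70 and Lef1) held CTTTGA, 4 (Lck, Zap70, Nkg7 and Gzma) TGTGGT and 7 GGAAG. Over all 32851 windows of the same length, 13.8% held CTTTGA, 14% TGTGGT and 64.1% GGAAG. A match describes the letters of the window and not a bound site.

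Zap70, the kinase that docks on CD3, was measured by 3 probe sets whose differences varied in sign. The brightest, which stands for the gene, read 7.72, 7.78 and 7.94 in Prox1-OE, against 8.09, 7.85 and 8.33 in control. It was above background on all 6 arrays, the groups overlapped by 1 array, and the difference was -0.28 ± 0.13 (95% interval -0.59 to 0.03, limma adjusted p = 0.763), or -0.23 without Prox1-OE replicate 1. The probe set ending in _x_at, a class that can bind related transcripts, read 4.75, 4.35 and 4.88 in Prox1-OE, against 4.17, 4.60 and 4.50 in control. Its difference had the opposite sign, 0.24 ± 0.16, again with overlapping groups (limma adjusted p = 0.842 over all probe sets). The dimmest probe set read 3.53, 3.14 and 3.28 in Prox1-OE and 3.30, 3.51 and 3.33 in control. It was under background on every array and differed by -0.06 ± 0.12 (limma adjusted p = 0.952 over all probe sets). Prox1-OE replicate 1 minus the highest control was -0.62, 0.15 and 0.02 for the 3 in this order. The sign of Zap70 in the comparison of genes therefore rests on the choice of probe set. Of the 3, only the dimmest was annotated to a RefSeq mRNA, and no source sequence was given for the brightest. Whether the brightest reads Zap70 RNA was not tested.

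Cd2 encodes an adhesion receptor of T and NK cells that binds CD48 in mice. It read 4.73, 4.31 and 4.62 in Prox1-OE, against 4.39, 4.41 and 4.36 in control. Prox1-OE replicates 1 and 3 were above all controls and above background, and Prox1-OE replicate 2 was below all controls. The difference was 0.17 ± 0.12 (95% interval -0.10 to 0.44, limma adjusted p = 0.810), or 0.29 without Prox1-OE replicate 2 and 0.08 without Prox1-OE replicate 1. Its ligand gene Cd48, carried by most leukocytes, read 5.62, 4.33 and 4.48 in Prox1-OE and 3.96, 3.55 and 3.44 in control, a difference of 1.16 ± 0.31 (limma adjusted p = 0.690) with no overlap between the groups.

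Lef1, a transcription factor of the HMG box family that acts with Tcf7 in T cell development and in Wnt signalling of many other tissues, had 2 probe sets. The brighter read 5.08, 4.46 and 4.62 in Prox1-OE, against 4.41, 4.63 and 4.65 in control. Prox1-OE replicate 1 was the highest and the other Prox1-OE arrays lay within the control range, with a difference of 0.15 ± 0.16 (95% interval -0.22 to 0.53, limma adjusted p = 0.875) that was -0.03 without Prox1-OE replicate 1. The dimmer, which ends in _a_at, read 3.15, 3.05 and 3.48 in Prox1-OE, against 2.83, 2.73 and 2.85 in control. Its groups did not overlap, as for 2 of the 10 member probe sets and 4.6% of all probe sets in that direction (6.8% in the other), and it differed by 0.42 ± 0.12 (limma adjusted p = 0.777 over all probe sets). All 6 of its values were under background, at percentile 8.86 of all probe sets by mean.

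A list of HMG box relatives (Tcf7l1 and Tcf7l2) and genes of Wnt signalling was measured in full (9 of 9), while Tcf7 was not analysed. In limma's fit 0 passed the adjusted threshold, 3 differences were positive and 6 negative, and their median was -0.04. Sp5, a Wnt target, differed by -0.29 ± 0.08 under background, and Rnf43, a Wnt feedback ligase, by 0.43 ± 0.14 (limma adjusted p = 0.690 for each). Lgr5, a receptor for R-spondins, differed by 0.43 ± 0.21 and Axin2, a feedback inhibitor, by -0.10 ± 0.12.

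Nkg7 encodes a membrane protein of cytotoxic granules in NK and CD8 T cells. It read 4.05, 3.77 and 4.07 in Prox1-OE, against 3.42, 3.57 and 3.64 in control. All 3 Prox1-OE arrays were above all 3 controls, the only such gene of the 7, beside 5.05% of all genes in that direction. The difference was 0.42 ± 0.11 (95% interval 0.16 to 0.68, limma adjusted p = 0.690), or 1.34-fold, and 0.37 without Prox1-OE replicate 1. All 6 values were under background, at percentile 35.2 of all probe sets, where RMA compresses differences. Gzma, the granzyme with trypsin-like activity, read 3.56, 3.38 and 3.83 in Prox1-OE, against 3.31, 3.56 and 3.33 in control. The groups overlapped, no array was above background, and the difference was 0.19 ± 0.13 (95% interval -0.11 to 0.50, limma adjusted p = 0.807), or 0.21 without Prox1-OE replicate 1 and 0.07 without Prox1-OE replicate 3.

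**Figure D2:**
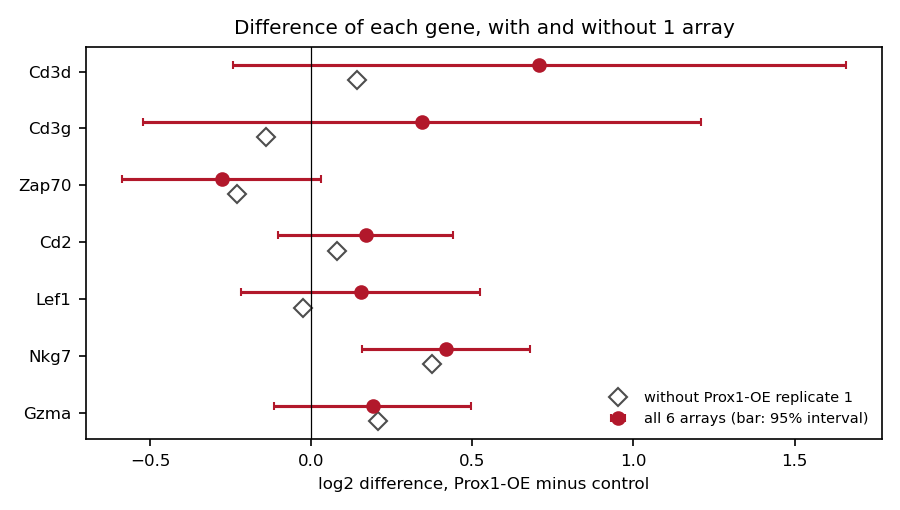
Log2 difference of each of the 7 genes, Prox1-OE minus control, with its 95% interval from limma over all 6 arrays (red points and bars) and without Prox1-OE replicate 1 (open diamonds). Of the 7 intervals, only that of Nkg7 (0.16 to 0.68) excludes 0; without that array Cd3d moves to 0.14 and Cd3g to -0.14, and Nkg7 stays at 0.37.

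In the other genes of T and NK cells no change passed the threshold either. With the members, these lists measured 58 of 63 genes, of which 20 read above background on 3 or more arrays. In limma's fit 0 of the 58 passed, 6 were higher and 0 lower at an unadjusted p under 0.05 (2.94% and 3.7% of all genes), 37 differences were positive and 21 negative. Their median was 0.11, and 0.02 without Prox1-OE replicate 1. That array held the highest value of the 6 for 30 of the 58 genes, and for 18.9% of all genes.

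Among 19 measured genes of receptor signalling, 10 differences were positive and 9 negative (median 0.07, and 0.01 without Prox1-OE replicate 1). Lat, the membrane scaffold that Zap70 phosphorylates, read 4.88, 4.82 and 4.81 in Prox1-OE, against 4.20, 4.19 and 4.29 in control. Every Prox1-OE array was above background and every control below it, and the groups were 0.61 ± 0.08 apart, which did not pass over all genes (limma adjusted p = 0.210). Fyb, an adaptor of T cells and myeloid cells, differed by 0.54 ± 0.15, Prkcq, the protein kinase C of T cells, by 0.54 ± 0.15, and Lcp2, an adaptor also used by myeloid cells, by 0.40 ± 0.17 (limma adjusted p = 0.690, 0.690 and 0.748). Cd3e, the epsilon subunit of CD3, was not highest on Prox1-OE replicate 1: it read 4.45, 4.21 and 4.73 in Prox1-OE, against 4.63, 4.82 and 4.75 in control, a difference of -0.27 ± 0.14 (limma adjusted p = 0.766). Cd247, the zeta chain, was under background on all arrays.

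Coreceptors and costimulatory receptors (9 of 9 measured, median 0.05, and -0.04 without Prox1-OE replicate 1) had 5 positive and 4 negative differences. The smallest p belonged to Cd27, a costimulatory receptor, at 0.40 ± 0.14 (limma adjusted p = 0.702), followed by Cd28, Ctla4 and Cd8b1 at 0.25, 0.19 and 0.19. These 4 were under background on every array except Cd8b1 on Prox1-OE replicate 1, at 4.44. Cd4, the coreceptor of helper T cells, differed by -0.03 ± 0.09 and Cd8a by -0.07 ± 0.14, both with overlapping groups. Genes of naive T cells and of T cell transcription (9 of 10 measured, median 0.35, and 0.15 without Prox1-OE replicate 1) had 8 positive differences. Il7r, the receptor of the survival cytokine interleukin 7, read 5.71, 3.70 and 4.24 in Prox1-OE, against 4.001, 3.76 and 3.71 in control. Prox1-OE replicate 1 was far above the other arrays and Prox1-OE replicate 2 the lowest of the 6, and the difference was 0.72 ± 0.43 (limma adjusted p = 0.785). A dimmer probe set of Il7r, under background on every array, read 3.88, 3.70 and 3.83 in Prox1-OE, against 3.55, 3.58 and 3.24 in control. Its groups did not overlap and differed by 0.34 ± 0.12 (limma adjusted p = 0.777 over all probe sets). Ccr7, the homing receptor for lymph nodes, differed by 0.35 ± 0.17 and was under background on every array. Ets1 and Satb1, transcription factors of lymphocytes and other cells, differed by 0.58 ± 0.31 and 0.68 ± 0.36. S1pr1, needed to leave lymph nodes, differed by 0.38 ± 0.22 (limma adjusted p between 0.763 and 0.777 for these genes and Ccr7).

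Other cytotoxic and NK cell genes (14 of 15 measured, median 0.03, and -0.02 without Prox1-OE replicate 1) had 8 positive and 6 negative differences, and 2 of the 14 were above background on 3 or more arrays. Ccl5, a chemokine of cytotoxic T and NK cells, read 6.19, 4.20 and 4.76 in Prox1-OE, against 3.97, 3.98 and 4.31 in control, a difference of 0.96 ± 0.43 (limma adjusted p = 0.753) led by Prox1-OE replicate 1. Klrd1, a lectin receptor of NK cells, differed by 0.30 ± 0.15, Ncr1, an NK cell receptor, by 0.16 ± 0.11, and Cst7, a protease inhibitor of cytotoxic cells, by 0.14 ± 0.09, all under background. Prf1, of the pore-forming protein perforin, differed by -0.14 ± 0.12, and Gzmb and Gzmk, other granzymes, by -0.13 ± 0.11 and -0.07 ± 0.10, with overlapping groups for all 3. The dimmer probe set of Prf1 differed by 0.13 ± 0.13, so that its sign rests on the choice of probe set. Of 5 thymocyte genes, 0 were above background on 3 or more arrays, among them the recombinase genes Rag1 and Rag2, which differed by 0.18 ± 0.10 and -0.04 ± 0.10.

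The antigen-binding chains of the T cell receptor itself were covered by 17 probe sets under 10 gene symbols, a set added after the values were seen. Of these, 13 were above background on no array and 4 lay at least 1 above the highest control on Prox1-OE replicate 1, where 0.486% of all probe sets did. One probe set of Trav9d-3, of the alpha chain, read 7.24, 4.27 and 5.12 in Prox1-OE, against 4.23, 4.38 and 4.54 in control, so that Prox1-OE replicate 1 was 6.49-fold over the highest control. Another of the same symbol read 7.43, 4.79 and 5.32 in Prox1-OE, against 4.91, 4.96 and 5.02 in control. The brighter probe set of Trbv1, of the beta chain, read 7.43, 5.14 and 6.01 in Prox1-OE, against 5.40, 5.40 and 5.47 in control. In each, Prox1-OE replicate 1 was the highest array, Prox1-OE replicate 3 came next and Prox1-OE replicate 2 was lowest, the order of Cd3d and Cd3g among the Prox1-OE arrays. The group differences were 1.16 ± 0.61, 0.88 ± 0.55 and 0.77 ± 0.46 (limma adjusted p = 0.816, 0.836 and 0.829 over all probe sets). All 3 end in _x_at, so the symbol does not settle which receptor chain gave the signal.

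**Figure D3:**
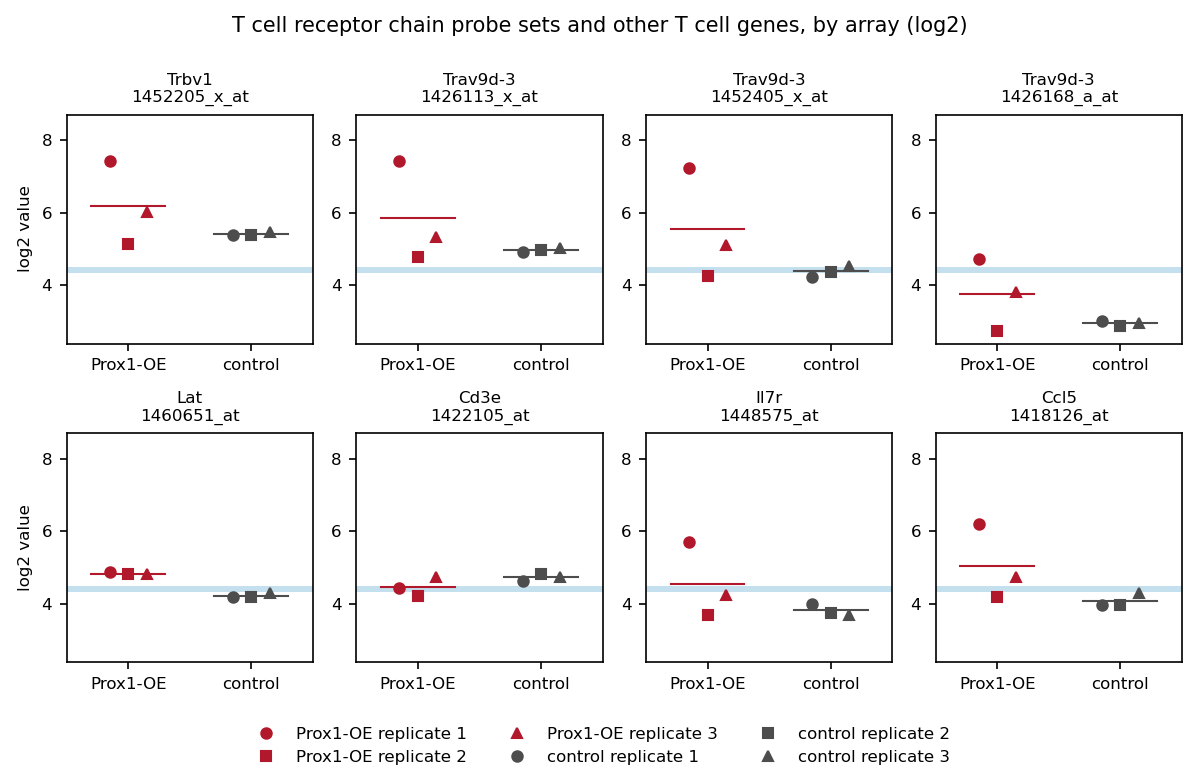
Log2 values on each array of the 4 T cell receptor chain probe sets that were highest on Prox1-OE replicate 1 (top row) and of Lat, Cd3e, Il7r and Ccl5 (bottom row), drawn as in the plot of the member probe sets. The chain probe sets, Il7r and Ccl5 peak on Prox1-OE replicate 1; Lat separates the groups on all arrays and Cd3e is not highest there.

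By the mean of each list, markers of leukocytes, B cells and lymph nodes took the order of the members' mean over the Prox1-OE arrays. For macrophages (0.41 and 0.38) and neutrophils (0.09 and 0.11), Prox1-OE replicates 2 and 3 were close. Of the neutrophil genes, S100a8, S100a9, Ngp, Camp and Elane were higher on replicate 2 than on replicate 3, and Mpo and Ltf lower. The part of these cells in the differences was not tested. The mean of the 7 members over the control mean was 0.62, -0.12 and 0.23 on Prox1-OE replicates 1, 2 and 3, against -0.07 to 0.06 on the controls. Cd3d and Cd3g led it, with a mean of 1.58, -0.27 and 0.27. Among the Prox1-OE arrays, Zap70, Nkg7 and Gzma were instead highest on replicate 3. Genes of all leukocytes (10 of 10 measured) took the order of the members' mean, 2.41, 0.37 and 1.17, against -0.08 to 0.13 on the controls. All 10 had positive differences and the groups did not overlap for 8, but 0 passed in limma's fit (8 were higher at an unadjusted p under 0.05). Over all genes, 5.05% did not overlap in that direction and 2.94% were higher at that p. Ptprc, the leukocyte antigen CD45, read 8.92, 5.55 and 7.56 in Prox1-OE, against 5.38, 5.21 and 5.19 in control. Cd52, a surface glycoprotein of lymphocytes, differed by 2.33 ± 0.66, Laptm5, of leukocyte lysosomes, by 1.14 ± 0.34, and Cd53, a tetraspanin of leukocytes, by 1.45 ± 0.43 (limma adjusted p = 0.690 for each). B cell genes (13 of 14 measured, 4 above background on 3 or more arrays) were at 1.12, 0.08 and 0.42 on the Prox1-OE arrays, against -0.06 to 0.07 on the controls. The difference was 2.26 ± 0.62 for Ms4a1, which encodes CD20, and 1.44 ± 0.48 for Ighm, of the IgM heavy chain, with no overlap for either (limma adjusted p = 0.690 for each). The dimmer probe set of Ms4a1 was high on Prox1-OE replicate 1 alone (5.26, 2.92 and 2.93, against 2.84, 2.96 and 2.91 in control). Other probe sets of Ighm differed by -0.15 ± 0.09 to 1.69 ± 0.51, with no overlap at either end, so its sign depends on the probe set. Pou2af1, a coactivator of B cells, differed by 0.81 ± 0.37 and Cd22, an inhibitory receptor, by 0.79 ± 0.38 (limma adjusted p = 0.753 and 0.763), while Cd79a, of the B cell receptor complex, was under background throughout. Genes of lymph node vessels and stroma (4 of 6 measured, 1 above background on 3 or more arrays) were at 1.65, 0.36 and 1.01, against -0.11 to 0.12. Of these, Glycam1, made by the high endothelial venules of lymph nodes, read 8.49, 3.26 and 6.83 in Prox1-OE, against 3.30, 3.49 and 3.72 in control. Cxcl13, a chemokine that draws B cells, had another order, with 6.495, 7.59 and 5.54 in Prox1-OE, against 5.47, 5.77 and 5.46 in control. On Prox1-OE replicate 2 it was the only gene of the 4 above its control mean. Madcam1, a vessel ligand for homing lymphocytes, was highest on Prox1-OE replicate 3 (4.57) and differed by 0.30 ± 0.24. Chst4, a sulfotransferase of high endothelial venules, differed by 0.06 ± 0.11 and was under background on every array. The order of the mean of this list therefore rests mainly on Glycam1. Macrophage genes (12 of 12 measured, all above background on 3 or more arrays) were at 0.97, 0.41 and 0.38, against -0.17 to 0.14, and neutrophil genes (7 of 8 measured) at 0.49, 0.09 and 0.11, against -0.15 to 0.24. Thymocyte genes stayed between -0.09 and 0.07 on the Prox1-OE arrays and -0.06 and 0.09 on the controls.

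**Figure D4:**
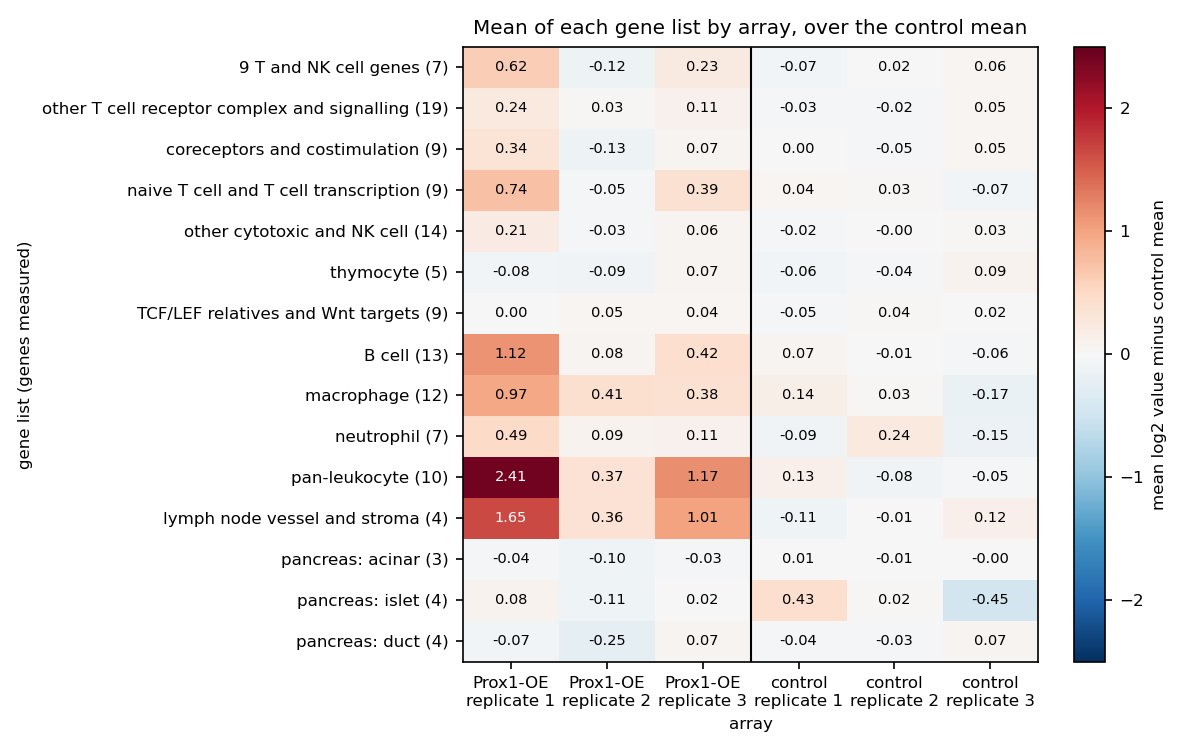
Mean log2 value of each gene list on each array (columns, Prox1-OE left of control) after subtracting the control mean of each gene; the number of genes measured is in parentheses and colours run from blue (lower) to red (higher). The mean of the 9 T and NK cell genes, of which 7 were measured, takes the same order over the Prox1-OE arrays as the means of the pan-leukocyte, B cell and lymph node lists. Prox1-OE replicate 1 is at 0.62, 2.41, 1.12 and 1.65 in these. Cd3d and Cd3g lead the T and NK cell mean and Glycam1 the lymph node mean, and not all genes of these lists take that order.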

How the data were processed

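Gene expression in whole pancreas was measured on Affymetrix 3' arrays from biotinylated cRNA made with 100 ng of total RNA, per the labels' protocols. The deposited values are log2 probe set summaries; RMA and Partek 6.5 are named without settings in the submitters' processing notes. RMA quantile-normalizes the arrays, so a change in total RNA cannot be seen, and it compresses dim differences. The table held 45101 probe sets, of which 64 Affymetrix controls were left out. Of the rest, 34945 had 1 gene symbol, 932 several and 9160 none; 34741 of those with 1 symbol matched RefSeq, which gave 0 a newer symbol. The array design's genome build is unknown here.

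Each of 18193 genes was represented by its brightest probe set on average. Prox1-OE was set against control in limma 3.58.1 (R 4.3.3; lmFit, then eBayes; two-sided, no covariate, no filter, Benjamini-Hochberg over all genes at 0.05), and every probe set was also tested in a fit of all 45037. On simulated data of the same 18193 genes, 10 runs recovered 37.9% of genes changed by 0.5, 97.1% at 1 and 100% at 2 on the log2 scale, with 6.3% of calls false. The changed genes were picked at random, the noise was normal and independent between arrays, and no array stood apart. These shares therefore do not hold for genes with a wide spread among the Prox1-OE arrays. Cd52, for example, differed by 2.33 ± 0.66 and did not pass.

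The members and all lists were chosen with earlier results of these data known, so no list was tested as a set; lists are given as counts and medians. Of the 141 symbols on the lists, 129 were measured. All member probe sets were described, and of other lists told by gene, up to 4 genes with the smallest p. Cd3e, Cd247, Cd4, Cd8a, Il7r, Prf1, Gzmb, Gzmk, Ptprc and Cd79a, and the receptor chain probe sets, were named after their values were seen, and the promoter motifs were chosen with these results known. Other settings were median centring, a second quantile normalization, robust eBayes with a trend, weights per array, a replicate block, a filter at background, other rules for the probe set of a gene, and each array left out in turn. The number of arrays limits the precision. Promoter sequences are from RefSeq (GRCm38.p6).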

Additional observations from a re-analysis of the deposited data

Results flagged for a closer look

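Of 8 probe sets that name several genes, at least 1 of them on a gene list, 2 were flagged. Their group differences were above 1 on the log2 scale, and such probe sets were used in no comparison. The one with 9 symbols read 8.08, 4.71 and 6.80 in Prox1-OE, against 4.90, 4.97 and 5.36 in control, a difference of 1.45 ± 0.68 (SE, limma adjusted p = 0.810 over all probe sets). The one with 10 symbols read 7.69, 4.85 and 6.68 in Prox1-OE, against 5.39, 5.29 and 5.10 in control, a difference of 1.15 ± 0.57 (limma adjusted p = 0.812). Both were highest on Prox1-OE replicate 1 and lowest of the 6 on Prox1-OE replicate 2.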

How the results depend on the processing

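No member passed the adjusted threshold under any setting run, and the lowest limma adjusted p among the settings was 0.461, for Nkg7 without Prox1-OE replicate 2. The differences of Cd3d (0.14 to 1.08), Cd2 (0.08 to 0.29), Nkg7 (0.35 to 0.51) and Gzma (0.07 to 0.29) kept their sign under every setting that measured them; the filter on dim genes left out Cd3d, Cd3g, Nkg7 and Gzma. Cd3g ran from -0.14 to 0.76 over the fits without 1 array and Lef1 from -0.027 to 0.29; each was negative only without Prox1-OE replicate 1. Zap70 turned to 0.24 with its probe set ending in _x_at, both singly and when its brightest probe set was left out, a setting added after the data were seen. The median of the members ran from 0.08 to 0.29 over the fits without 1 array. The count of members whose groups did not overlap was 2 with the mean of probe sets or every probe set singly, and 0 with the filter on dim genes, which kept 3 of the 7 members. It ran from 1 to 4 without 1 array (4 without Prox1-OE replicate 2, 2 without Prox1-OE replicate 3, 3 without control replicate 2), where 20.2% to 24% of all genes did not overlap. Against the median of the receptor probe sets as background, 9 member probe sets were above it on 3 or more arrays in place of 3, so what counts as above background depends on this choice. With the replicate number as a block, 0 members passed, their median was 0.19 and 2 of all genes passed in place of 5. Deviations of same-numbered arrays correlated at 0.0441, 0.142 and 0.109 across genes, so the numbers were not taken as pairs, although every array correlated best with its own number. Values under background carry little signal, and 7 of the 10 member probe sets were there on most arrays.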

Other observations

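Over the 6 arrays, likeness was measured as the root mean square distance between values less their control mean. The rule for likeness used members above background on 3 or more arrays, which left Zap70 and Lef1, with a mean profile that spanned only 0.38. Among 12233 genes of at least 0.8 times that range, the nearest were Smad7, Cadm3, Ifnar2, Zcchc8, Thap3 and Sec22c, at distances of 0.03 to 0.04, and with so small a span many genes lie near.

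The same measure, applied after the values were seen to the mean of Cd3d and Cd3g, left 202 genes with a wide enough range. The nearest was Ighv14-2, an immunoglobulin heavy chain segment of B cells, at a distance of 0.10, with 1.57, -0.19 and 0.32 over control on the Prox1-OE arrays, against -0.10, 0.20 and -0.10 on the controls. Mmrn1, of multimerin 1 in platelets and lymphatic endothelium, Nfkbie, an inhibitor of NF-kappaB, Igha, the heavy chain of immunoglobulin A, Shisa3 and Nrros, of myeloid cells, followed at 0.14 to 0.17. All 6 were highest on Prox1-OE replicate 1.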
